A study of Homo sapiens with 6 samples.

Results

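The 9 p53-responsive genes described here are CDKN1A, MDM2, TNFRSF10B, PLK2, PLK3, ZMAT3, GADD45A, GADD45B and BBC3, taken by symbol from the 16617 genes of the authors' deposited table. All 9 were found. They were measured by RNA sequencing in T3M4 cells, an established line from a human pancreatic ductal adenocarcinoma, grown in DMEM with fetal bovine serum and penicillin/streptomycin. The sgControl group held 3 libraries from cells with a control guide RNA, given the genotype WT. The sgMETTL13 group held 3 libraries from cells with a guide RNA against METTL13, given the genotype METTL13 knockdown. METTL13 is a methyltransferase of the elongation factor eEF1A. The labels and files used here do not say how many guides there were, which editing system was used, or whether the cells were a pool or a clone. Nothing in the labels says that the libraries came from separate cultures, so the p-values measure only the spread between these libraries, which may be technical. The table gives 1 average per group and no value per library.

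The transcription factor p53 is stabilised by DNA damage and other stresses and activates genes for cell cycle arrest, DNA repair and apoptosis. Its target MDM2 encodes the ubiquitin ligase that degrades p53, which closes a negative feedback loop. Many p53 targets also answer to other inputs, among them growth factor signalling, the p53 relative p63 and stress-activated transcription factors. CDKN1A, which encodes the cyclin-dependent kinase inhibitor p21, is the best known of these.

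In sgMETTL13 cells 3 of the 9 genes rose and none fell. CDKN1A rose 1.38-fold, PLK3 1.26-fold and TNFRSF10B 1.21-fold. MDM2, PLK2, ZMAT3, GADD45A, GADD45B and BBC3 did not pass the test. The test is the authors' own comparison, with a gene called where the deposited q-value, an adjusted p, was under 0.05. Of all genes in the authors' deposited table, 3.8% were called, 2.73% higher and 1.08% lower. Called genes made up 33.3% of the 9, which were proposed with results of these data in view. Among the 8 that had at least the median of 205 mean reads the count was also 3. Of all genes at or above that median 7.04% were called, 5.21% higher and 1.83% lower. The share called also varied with read count above that floor. Among genes with a mean read count close to that of CDKN1A, 19.09% were called, 17.73% higher. The matching shares were 10.6% (7.373% higher) for TNFRSF10B and 4.561% (2.995% higher) for PLK3. On the log2 scale the median change of the 9 genes was 0.01, beside 0.00 over all genes.

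The targeted transcript was lower in the group labelled as its knockdown. By the authors' deposited table METTL13 averaged 39.9 TPM in sgControl and 5.63 TPM in sgMETTL13, a log2 ratio of -2.78 (the deposited log2 fold change, sgMETTL13 over sgControl; adjusted p = 2.5e-127). Average estimated reads over all genes came to 15240866 for an sgControl library and 15247500 for an sgMETTL13 library. All 7 ductal epithelial markers were present, with a summed average of 4798.6 TPM in sgControl and 4643.2 in sgMETTL13, and MUC1 was called lower (-0.46 in the authors' deposited table). Of 18 markers of fibroblasts, leukocytes, endothelium and acinar cells, 5 are not in the table and 11 lay under 3 TPM in both groups. The defining leukocyte marker PTPRC is among the former. The other two were CD68 and COL1A1, at 40.9 and 14.0 TPM in sgControl and 44.1 and 14.2 TPM in sgMETTL13 in the authors' deposited table. Of the 13 listed, 0 were called by the deposited q-value, with 1 (CD68) at an unadjusted p under 0.05, and their sum was 61.5 TPM in sgControl and 65.3 in sgMETTL13. At an unadjusted p under 0.05, 1271 of all 16617 genes were higher and 797 lower. In bulk RNA a smaller share of cells that express a gene and less of its RNA per cell cannot be told apart.

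Promoter sequence was examined for 7 of the 9 genes, for which RefSeq (GRCh38.p14) gives 11 windows from 250 bases before to 50 bases after a start site. TNFRSF10B and GADD45A had no window. Stretches from 4 of them are shown, 5′ to 3′ on the gene's strand, because they set 2 genes that rose (CDKN1A and PLK3) beside PLK2, the paralog of PLK3, and MDM2, neither of which was called. Capitals mark Sp1-type GC boxes (GGGCGG or its complement) in the first 3. In PLK3 they also mark a match to TGATGNAA, the composite element read by ATF4 and C/EBP factors, and in PLK2 an exact p53 half-site. In MDM2 capitals mark a pair of adjoining p53 half-sites found with up to 2 mismatches allowed. Pairs with more mismatches were not searched for and are not marked. The intervals are chr6:36678604-36678713 (plus strand) for CDKN1A, chr1:44800227-44800346 (plus) for PLK3, chr5:58460117-58460226 (minus) for PLK2 and chr12:68808897-68808986 (plus) for MDM2.
CDKN1A: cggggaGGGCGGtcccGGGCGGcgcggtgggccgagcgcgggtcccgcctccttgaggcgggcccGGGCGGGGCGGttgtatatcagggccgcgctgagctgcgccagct
PLK3: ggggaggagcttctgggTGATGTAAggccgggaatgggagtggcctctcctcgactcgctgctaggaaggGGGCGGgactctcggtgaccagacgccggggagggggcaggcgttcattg
PLK2: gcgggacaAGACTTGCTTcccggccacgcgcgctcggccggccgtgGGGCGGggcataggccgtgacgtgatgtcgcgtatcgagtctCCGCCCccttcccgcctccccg
MDM2: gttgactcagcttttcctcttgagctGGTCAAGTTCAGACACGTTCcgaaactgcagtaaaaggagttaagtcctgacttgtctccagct

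The 11 windows of the 7 genes were searched for 7 motifs on both strands. MDM2 has 4 of these windows, which overlap in pairs. Each MDM2 match given below therefore lies in 2 windows and is counted in both. The MDM2 stretch lies before its internal start site, and the pair of half-sites there runs from -94 to -75 with 2 mismatches in all. A pair of that quality occurs in 0.65% of 34943 windows of the same length. The exact p53 half-site was matched in PLK2 alone among the 7 genes, from -132 to -123, and in 6.64% of all windows. GC boxes were matched in CDKN1A, MDM2, PLK2, PLK3 and ZMAT3, in 8 of the 11 windows and in 44.9% of all windows. The 4 matches in CDKN1A run from -104 to -35, and the last 2 share a base. TGATGNAA was matched in PLK3 alone (3.62% of all windows). TGANTCA, the AP-1 element, was matched in BBC3 and MDM2, in 3 of the 11 windows (7.72% of all). The CArG box of serum response factor and the cyclic AMP response element TGACGTCA were matched in none of the 7 (1.3% and 1.84%). These matches describe letters in the windows and not binding. TNFRSF10B, which rose, had no window to search. The well-studied p53 elements of CDKN1A lie farther upstream, outside the window searched.

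CDKN1A, the inhibitor of cyclin-CDK complexes, was the most abundant of the 9 genes and gained most. It averaged 354.0 TPM in sgControl and 464.2 TPM in sgMETTL13 by the authors' deposited table. Its average estimated reads went from 5732 to 7643, a gain of 1911 reads per library. This is a log2 fold change (sgMETTL13 over sgControl) of 0.47 by the authors' deposited table (adjusted p = 5.06e-11). The standard error implied by the deposited p-value was 0.0627, which gives a 95% interval from 0.34 to 0.59. It ranked 21st by adjusted p among the 453 genes called higher. With 98.0% of all genes at a lower mean TPM, CDKN1A alone made up 57.6% of the summed TPM of the 9 genes in sgControl and 63.8% in sgMETTL13. The sum of the other 8 was 260.5 TPM in sgControl and 263.6 in sgMETTL13. CDKN1A (Entrez gene 1026) lies on chromosome 6 from 36676460 to 36687339 on the plus strand in GRCh38 (GENCODE 29). Its exons overlap the antisense RNA gene DINOL, which is not in the table, and the labels and files used here do not say whether reads were counted by strand.

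**Figure D1:**
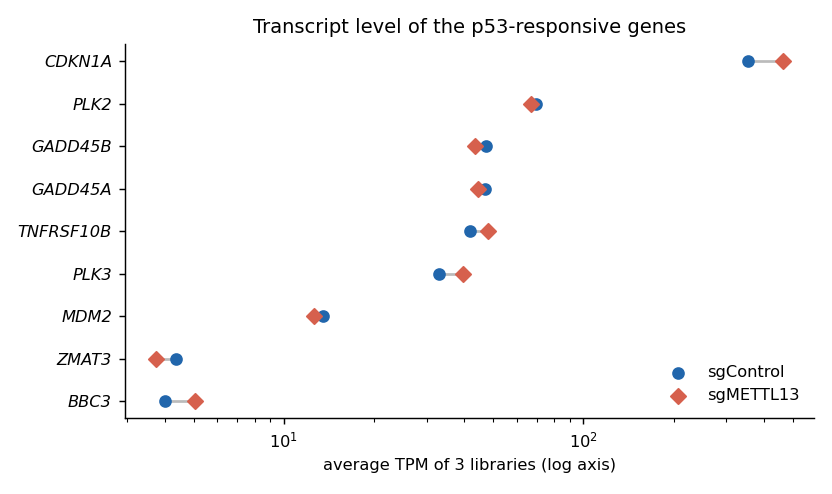
Average TPM of each of the 9 p53-responsive genes (log axis) in sgControl (circles) and sgMETTL13 (diamonds), each the authors' average over 3 libraries, with no spread. CDKN1A lies highest at 354.0 and 464.2 TPM, and BBC3 and ZMAT3 lowest, under 6 TPM.

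Some other abundant genes had a log2 fold change close to that of CDKN1A. Whether any of them responds to p53 was not tested. Among 130 called genes within 2-fold of its mean read count, the 5 with the nearest log2 fold change over the 2 group averages were PLAU (0.47), JUNB (0.47), IER3 (0.49), KRT14 (0.42) and SDC1 (0.42) in the authors' deposited table. PLAU encodes the urokinase plasminogen activator, JUNB an AP-1 subunit, KRT14 a basal keratin and SDC1 a syndecan. With 2 averages per gene, this likeness is 1 number per gene.

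Of 13 measured paralogs of the 9 genes 0 were called by the deposited q-value, with 1 higher (TNFRSF10D) and none lower at an unadjusted p under 0.05. At that unadjusted level 1271 of all 16617 genes were higher and 797 lower, which also applies to the counts below. The other CDK inhibitors of the CDKN1A family, CDKN1B (p27) and CDKN1C (p57), stood at 0.11 and 0.23 on the log2 scale by the authors' deposited table. Of 11 cyclins, CDKs and PCNA, which p21 binds or whose complexes it blocks, 0 were called by the deposited q-value, and 2 were lower and none higher at an unadjusted p under 0.05. These 2 were the cyclin E genes CCNE2 (-0.59, adjusted p = 0.116) and CCNE1 (-0.27, adjusted p = 0.163) in the authors' deposited table. Of the 11, 9 had a log2 fold change below 0 and 2 above, beside 8278 below and 8339 above of all 16617 genes. CCND1, the most abundant of the 11, averaged 381.5 TPM in sgControl and 341.4 TPM in sgMETTL13 by the authors' deposited table, a log2 ratio of -0.09 (adjusted p = 0.475). Of 30 cell cycle genes that p53 represses through p21 and the DREAM complex, which had a median of -0.05, 0 were called, with 3 lower and none higher at an unadjusted p under 0.05. Of the 30, 23 had a log2 fold change below 0 and 7 above. On the log2 scale the 3 lower at an unadjusted p under 0.05 lay between -0.29 and -0.24 with adjusted p from 0.232 to 0.382 in the authors' deposited table. Among them were the G1/S transcription factor gene E2F1 (-0.24, adjusted p = 0.267) and the mitotic kinase gene NEK2 (-0.28, adjusted p = 0.382) in the authors' deposited table.

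TNFRSF10B, the death receptor DR5 for the ligand TRAIL, rose. Its averages were 41.8 TPM in sgControl and 47.9 TPM in sgMETTL13 by the authors' deposited table, or 1316.6 and 1534.5 estimated reads. Its log2 ratio by the authors' deposited table was 0.27 (adjusted p = 0.00278; implied standard error 0.0673, 95% interval 0.14 to 0.40). Its exons overlap those of RHOBTB2 on the opposite strand, whose log2 ratio was 0.05 by the authors' deposited table (adjusted p = 0.968). Its read averages are not multiples of 1 read divided by the 3 libraries, as can arise when a read is split among genes. Among 12 genes of TRAIL signalling TNFRSF10B was the 1 called (8.33%), beside 2.73% called higher over all genes. The list therefore added no call beyond TNFRSF10B itself. Of the 12, 10 had at least the median mean read count of all genes, where 5.21% of genes were called higher. Of the others in the list, TNFRSF10A, FADD and TNFSF10 are given as values. The second signalling receptor TNFRSF10A had a log2 ratio of 0.07 by the authors' deposited table (adjusted p = 0.968). The decoy receptor TNFRSF10D, which is not in that list, had 0.18 (adjusted p = 0.282) in the authors' deposited table. The adaptor FADD had 0.26 (adjusted p = 0.107) in the authors' deposited table. The ligand TNFSF10, TRAIL itself, averaged 4.92 TPM in sgControl and 2.90 TPM in sgMETTL13 by the authors' deposited table, with a log2 fold change of -0.68 that did not pass (adjusted p = 0.184).

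PLK3 and PLK2 are stress-induced polo-like kinases, and 1 of the pair rose. PLK3 averaged 33.0 TPM in sgControl and 39.5 TPM in sgMETTL13 by the authors' deposited table, or 623 and 757 estimated reads. By the authors' deposited table its log2 ratio was 0.33 (adjusted p = 0.00938; implied standard error 0.0901, 95% interval 0.16 to 0.51). PLK2 averaged 69.5 and 66.7 TPM in sgControl and sgMETTL13, with a log2 ratio of 0.01 (adjusted p = 0.970; implied 95% interval -0.12 to 0.15) in the authors' deposited table. The log2 fold change of PLK3 exceeded that of PLK2 by 0.32, with an interval from 0.10 to 0.54 that treats both errors as independent although the libraries are shared. PLK1, the mitotic kinase of the family, had a log2 ratio of 0.07 by the authors' deposited table (adjusted p = 0.846), and PLK4, which drives centriole duplication, one of -0.14 (adjusted p = 0.851). The transcript of PLK3 has 61.2% GC and that of PLK2 47.2%. Genes called higher had a median of 57.8% GC, beside 49.6% over all genes. After removal, over all genes, of a smooth dependence of the log2 ratio on transcript GC content and length, PLK3 was at 0.24 and no longer called (adjusted p = 0.169), whereas CDKN1A (0.39) and TNFRSF10B (0.27) kept the call. PLK3 lies on chromosome 1 from 44800225 to 44805990 (plus strand) and PLK2 on chromosome 5 from 58453982 to 58460260 (minus strand) in GRCh38 (GENCODE 29).

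**Figure D2:**
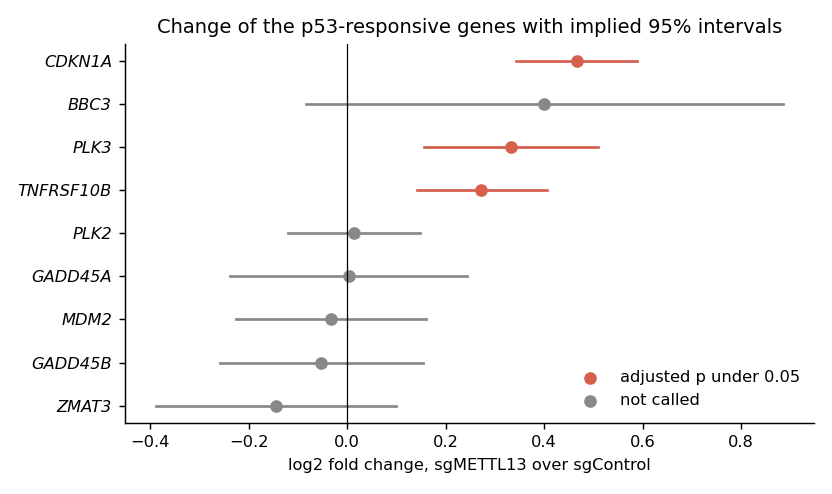
Log2 fold change of each of the 9 genes, sgMETTL13 over sgControl, as deposited (points), with implied 95% intervals (lines). CDKN1A (0.47), PLK3 (0.33) and TNFRSF10B (0.27) were called, and the widest interval is that of BBC3, from -0.08 to 0.88.

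MDM2, the feedback inhibitor of p53, did not pass the test. It averaged 13.5 TPM in sgControl and 12.6 TPM in sgMETTL13 by the authors' deposited table, or 771.7 and 728.7 estimated reads. By the authors' deposited table the log2 ratio was -0.03 (adjusted p = 0.968; implied 95% interval -0.22 to 0.16). At its implied standard error of 0.0984 an observed change of 1.24-fold was needed for a call. MDM2 lies on chromosome 12 from 68808176 to 68850686 (plus strand) in GRCh38 (GENCODE 29), and its exons overlap those of CPM on the opposite strand. Its read averages, too, are not multiples of 1 read divided by the 3 libraries, and which reads were shared was not analysed here.

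ZMAT3, an RNA-binding zinc finger protein, was the member with the lowest log2 fold change. It averaged 4.36 TPM in sgControl and 3.74 TPM in sgMETTL13 by the authors' deposited table, or 303.4 and 264.9 estimated reads. Its log2 ratio of -0.14 by the authors' deposited table (adjusted p = 0.806) had an implied 95% interval from -0.39 to 0.10. A change of 1.31-fold would have been called at its error. ZMAT3 also has averages that are not multiples of 1 read divided by 3.

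The GADD45 genes, which encode small activators of the stress kinase MAP3K4 and factors in DNA repair, did not pass either. GADD45A averaged 46.9 TPM in sgControl and 44.6 TPM in sgMETTL13, and GADD45B 47.4 and 43.4 TPM, in the authors' deposited table. On the log2 scale these were changes of 0.00 and -0.05 by the authors' deposited table (adjusted p = 0.995 and 0.968). The implied 95% intervals ran from -0.24 to 0.24 for GADD45A and from -0.26 to 0.15 for GADD45B. The difference of GADD45A from GADD45B was 0.06, with an interval from -0.26 to 0.37. The third gene of the family, GADD45G, was under 1 TPM in both groups. Average TPM and the deposited log2 fold change are on different scales. For genes at or above 205 mean reads the log2 of the TPM ratio lay 0.073 below the deposited log2 fold change at the median. GADD45A and PLK2 had a lower TPM in sgMETTL13 and a log2 fold change just above 0. Of 11 stress kinases and kinase partners of GADD45 proteins 1 (9.09%) was called higher and none lower, beside 2.73% higher over all genes. Of the 11, 8 had at least the median of 205 mean reads, where 5.21% of genes were called higher. The called gene was MAP2K3, which phosphorylates p38, at 0.36 (adjusted p = 1.57e-05) in the authors' deposited table.

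BBC3, which encodes the BH3-only apoptosis inducer PUMA, rested on few reads and did not pass the test. It averaged 4.02 TPM in sgControl and 5.06 TPM in sgMETTL13 by the authors' deposited table, or 54.7 and 69.7 estimated reads. Its log2 ratio of 0.40 by the authors' deposited table (adjusted p = 0.582) was the second highest of the 9 genes and had an implied standard error of 0.247. At that error an observed change under 1.70-fold would not have been called. PUMA belongs to the BCL2 family, whose survival proteins it binds and whose effectors BAX and BAK it acts through. Of 10 other genes of the family, which include further BH3-only genes, 4 (40.0%) were called higher and none lower, beside 2.73% called higher over all genes. These were the survival genes MCL1 (0.27, adjusted p = 4.4e-05) and BCL2L1 (0.28, adjusted p = 0.000117), the effector gene BAK1 (0.28, adjusted p = 0.00935) and the BH3-only gene BAD (0.27, adjusted p = 0.0324) in the authors' deposited table. The median of the 10 was 0.23. All 4 called genes were among the 7 of the 10 with at least the median mean read count of all genes. At or above that median 5.21% of genes were called higher. With the GC and length trend removed 2 of the 10 were called, MCL1 (0.29) and BCL2L1 (0.22). BAX, the other effector of the family and a p53 target, had a log2 ratio of 0.19 by the authors' deposited table (adjusted p = 0.402), and PMAIP1 (NOXA) one of -0.23 (adjusted p = 0.834).

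Outside the 9 genes, 5 of 37 other p53-responsive genes (13.5%) rose and none fell, with a median of 0.06. Over all genes 2.73% were called higher, and 5.21% of those with at least the median of 205 mean reads, which 23 of the 37 had. The largest of these rises was in GDF15, a stress-induced cytokine, from 112.9 to 156.4 TPM (log2 fold change 0.54) in the authors' deposited table. By the authors' deposited table SFN, the 14-3-3 sigma gene, rose from 3646 to 4430 TPM (0.36). PERP, a desmosome-associated membrane protein that p63 also controls, rose by 0.31, the stress transcription factor ATF3 by 0.50 and SERTAD1 by 0.38 in the authors' deposited table. Their adjusted p values lay between 1.05e-09 and 0.0319. With the GC and length trend removed GDF15 (0.41), SFN (0.23) and PERP (0.34) were called, and ATF3 (0.46, adjusted p = 0.0773) and SERTAD1 (0.33, adjusted p = 0.126) were not. At an unadjusted p under 0.05, 8 of the 37 were higher and none lower, beside 1271 higher and 797 lower of all 16617 genes. Of the 37, 26 had a log2 fold change above 0, beside 8339 of all 16617 genes. The 3 of the 37 that were higher at an unadjusted p under 0.05 without a call were CCNG2 (0.38, adjusted p = 0.212), BAX (0.19, adjusted p = 0.402) and TNFRSF10D (0.18, adjusted p = 0.282) in the authors' deposited table. Values of other direct p53 targets that did not pass lay on both sides of 0, among them SESN1 (-0.33), FAS (-0.22), CCNG1 (-0.20), DDB2 (0.04), SESN2 (0.12) and APAF1 (0.17) in the authors' deposited table; these examples were picked with their values known.

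**Figure D3:**
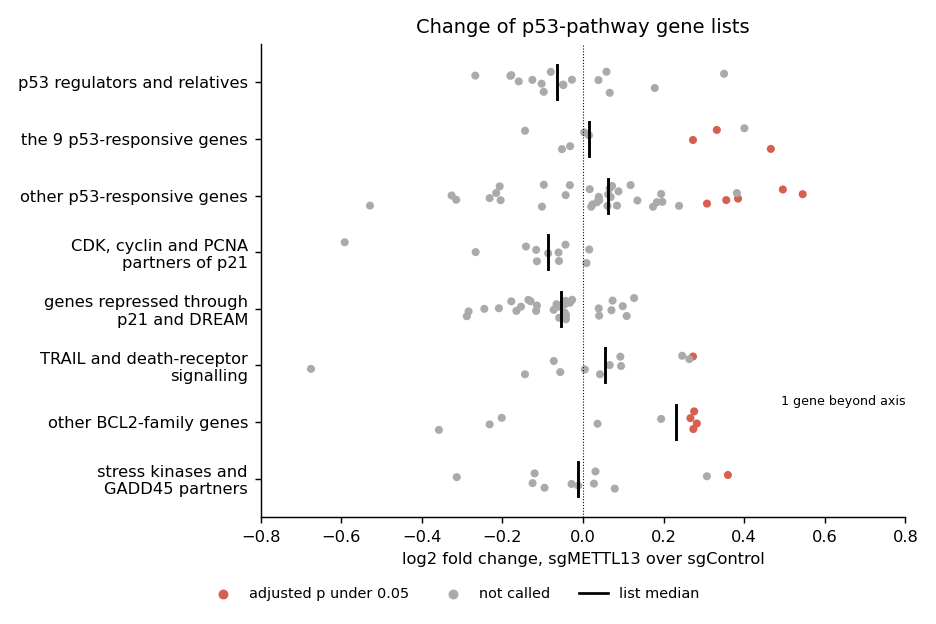
Log2 fold change, sgMETTL13 over sgControl, of each measured gene (points) in 8 lists, with the list's median (bar); called genes are coloured, and 1 BCL2-family gene lies beyond the axis. Called genes lie to the right of 0, with 3 of the 9 p53-responsive genes, 5 of 37 other responsive genes and 4 of 10 BCL2-family genes.

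The regulators and relatives of p53 gave no call. Of 16 measured genes in this list 0 were called by the deposited q-value, with 1 higher and 2 lower at an unadjusted p under 0.05. At that level 1271 of all 16617 genes were higher and 797 lower. Of the 16, 11 had a log2 fold change below 0 and 5 above. Among the 2 lower at an unadjusted p under 0.05 was the damage kinase gene ATR (-0.27, adjusted p = 0.192) in the authors' deposited table. PPP1R13L, which encodes the inhibitor iASPP, was the 1 higher at that level, at 0.35 (adjusted p = 0.266) in the authors' deposited table. TP63, the gene of the basal epithelial factor p63, averaged 140.3 TPM in sgControl and 124.6 TPM in sgMETTL13 by the authors' deposited table, and TP73 averaged under 1 TPM. On the log2 scale TP63 stood at -0.10 by the authors' deposited table (adjusted p = 0.769). MDM4, the partner of MDM2, had -0.13 (adjusted p = 0.892), and CDKN2A, the locus of p16 and the MDM2 inhibitor ARF, had -0.03 (adjusted p = 0.968), in the authors' deposited table.

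The order of the 9 genes by level was the same in most places in both groups. CDKN1A stood first and PLK2 second by average TPM. GADD45B, GADD45A, TNFRSF10B and PLK3 followed between 33.0 and 47.4 TPM in sgControl by the authors' deposited table. In sgMETTL13 TNFRSF10B stood above GADD45A and GADD45B. MDM2 came seventh in both groups. BBC3 stood last in sgControl, below ZMAT3, and above it in sgMETTL13. With no spread per library, whether neighbours in that order differ was not tested.

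**Figure D4:**
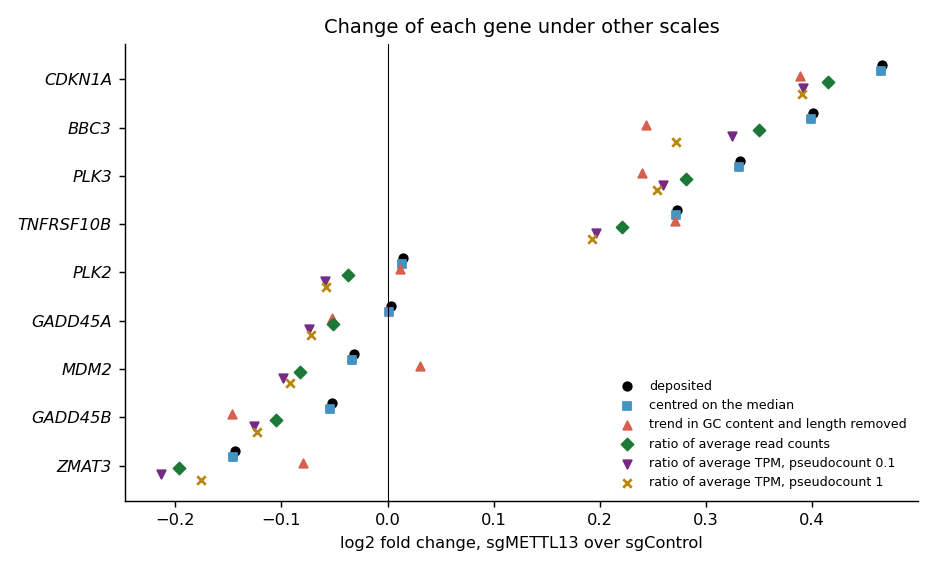
Log2 fold change of each of the 9 genes, sgMETTL13 over sgControl, as deposited and on 5 other scales. CDKN1A, BBC3, PLK3 and TNFRSF10B lie above 0 on each scale shown, and GADD45B and ZMAT3 below 0.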

How the data were processed

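RNA from 3 sgControl and 3 sgMETTL13 libraries of T3M4 cells was extracted with TRIzol and made into libraries by a sequencing company, per the labels' protocols. The submitters' processing notes name RSEM 1.2.12, Bowtie2 2.2.5, HISAT2 2.0.4 and DESeq2, the last without a version, and the builds hg38 and GRCh38.p12, with no role or order. Per the labels, WT columns hold sgControl and KD columns sgMETTL13. Per the file headers the deposited values are average TPM, average FPKM (not used) and average read counts, which are estimated counts (expected counts) since 20.2% of genes have averages that are not multiples of 1 read divided by 3 (tolerance 0.02 on the sum). The authors also deposited a log2 fold change, a p-value and a q-value (within 1.22% of a Benjamini-Hochberg adjustment). In the more abundant genes (205 mean reads, the median, or more) the deposited log2 fold change equals the log2 ratio of average counts plus 0.052 (SD 0.0007). The depth of single libraries is unknown.

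No count model was fitted, because the table holds no value per library; the deposited comparison is the test. The implied standard error divides the absolute log2 fold change by the normal z of the deposited two-sided p-value, and so assumes a normal test. The change needed for a call takes the largest p of a called gene, 0.00186. The 9 genes, the 8 further pathway lists and the 5 lists of cell type markers were chosen with earlier results of these data known. Lists overlap: TNFRSF10B is also in the TRAIL list, and TNFRSF10A is in the TRAIL, paralog and other p53-responsive lists. BAX, PMAIP1, TNFRSF10C, TNFRSF10D, MDM4, CHEK1, PLK1, PLK4, CCNA2 and CDK1 are in 2 lists each. TNFRSF10D is thus counted both among the paralogs and among the other p53-responsive genes. Named are METTL13, the 9 genes, called members of each list (up to 8) or up to 3 with the smallest adjusted p, and the 5 genes like CDKN1A; other names, given to complete a family or a contrast, were chosen after their values were seen. GC content and length are those of the longest basic GENCODE 29 transcript, matched by Entrez ID for 16212 genes; the trend was a weighted spline of 4 degrees of freedom in each. The pair of p53 half-sites with up to 2 mismatches was added to the motifs after the windows were seen. Some genes that the naming rule includes are not reported here. The steps were tested on simulated data. Software was Python 3.11.15 with matplotlib 3.10.9, patsy 1.0.2, scipy 1.17.1, pandas 2.3.3 and numpy 2.4.6.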

Additional observations from a re-analysis of the deposited data

How the results depend on the processing

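The 3 calls among the 9 genes held at adjusted p thresholds of 0.01 and 0.1, with a recomputed Benjamini-Hochberg adjustment, with genes below the median read count left out and after centring on the median. With Bonferroni 1 of the 9 was called (CDKN1A), and with the trend in GC content and transcript length removed 2. In that last setting PLK3 was at 0.24 (adjusted p = 0.169), and MDM2 (0.031) and GADD45A (-0.052) turned sign without a call. Over all genes that setting left 271 higher and 168 lower, or 61.7% higher, beside 71.7% as deposited (453 and 179). Removal of the trend also centres the values. The cause of these changes was not tested. On the scale of average TPM with pseudocounts of 0.1 and 1 CDKN1A was at 0.391 and 0.390, TNFRSF10B at 0.197 and 0.193, and PLK2 at -0.059 and -0.058. With Bonferroni 136 genes were higher and 44 lower, and at an adjusted p under 0.01 305 and 104. Other p53-responsive genes kept 3 calls in the settings 0.01, Bonferroni and trend removed, and the BCL2-family list 2 with Bonferroni or the trend removed. The TRAIL list had 0 with Bonferroni.

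No paired analysis was possible because the deposited columns are averages of each group's 3 libraries. For the same reason leaving out a library and a count model with other size factors were not run. Low read counts limit BBC3 most, where 1.70-fold was needed for a call.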
